A study of Mus musculus with 8 samples.

Results

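The mets-shared loops are chromatin loops of mouse pancreatic cancer cells that were listed for FOXA1 and for HNF4G in a liver metastasis line and for neither factor in the matched tumor line. They were selected on the loop lists alone: the same pair of anchors, at identical coordinates of the mm10 build, had to stand in both liver mets lists and to be missing from both tumor lists. The rule returned 9083 of the 249200 distinct loops of the 4 lists, or 3.64%. In the liver mets line they accounted for 7.23% of 125623 FOXA1 loops, 11.6% of 78098 HNF4G loops and 26.0% of the 34963 loops found with both factors. Another 12712 loops of both liver mets lists were just outside the rule because 1 tumor list also held them, that of FOXA1 for 8129 loops and that of HNF4G for 4583.

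HiChIP, which joins DNA ends that lie close together in the nucleus and then pulls down the pieces bound by 1 protein, was run in 4 groups of 2 samples each: FOXA1 tumor, FOXA1 liver mets, HNF4G tumor and HNF4G liver mets. Both lines come from the KPC mouse, a genetically engineered model of pancreatic cancer. All 8 samples carry the genotype label WT and the treatment label Untreated, and the cells were cultured in DMEM with 10% FBS. A line is a single culture model of its site, so the site of origin and the individual culture cannot be told apart. Each group has 1 deposited loop list that covers both of its replicates. Therefore no spread between replicates can be given and no difference between groups was tested. Read depth is unknown from these lists. A loop missing from a list was not called there, which is not the same as no contact.

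FOXA1 is a pioneer factor of the forkhead family that can bind its sites in closed chromatin and opens enhancers in tissues derived from endoderm. HNF4G is a nuclear receptor, the close relative of HNF4A, and is active in epithelia of the gut and pancreas. A loop joins 2 anchors, which can be promoters, where transcription starts, or distal elements such as enhancers, and a distal element can act on a promoter that lies far away along the chromosome.

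The sequences below are the reference letters (GRCm38.p6, RefSeq) at anchors of the loops with the highest values, described further on. Each is a stretch clear of annotated exons around the match that lies nearest to the anchor's centre. Capitals mark the letters bound by forkhead factors (TGTTTAC), by HNF4 receptors (CAAAGTCCA or CAAAGGTCA) or by AP-1 factors (TGANTCA), and both strands were searched. They are shown because these are the factors pulled down, or, for AP-1, because these letters differed most, over all anchors, between the mets-shared and the tumor-shared ones. A match is a description of the letters and not a binding site.
Intron of Tcf7l2, AP-1 letters, chr19:55865999-55866059, + strand: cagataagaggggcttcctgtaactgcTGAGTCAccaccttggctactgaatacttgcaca
Upstream of Myc, forkhead letters, chr15:61985138-61985198, + strand: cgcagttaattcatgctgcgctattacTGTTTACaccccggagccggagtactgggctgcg
Intron of Itpr3, AP-1 letters, chr17:27064611-27064671, + strand: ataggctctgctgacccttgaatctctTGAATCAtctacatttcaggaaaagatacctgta
Gm14488 and Mir3089 anchor, HNF4 letters, chr2:30717730-30717792, + strand: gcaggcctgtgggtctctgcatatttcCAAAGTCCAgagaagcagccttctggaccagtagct
Intron of Ptges, AP-1 letters, chr2:30920278-30920338, + strand: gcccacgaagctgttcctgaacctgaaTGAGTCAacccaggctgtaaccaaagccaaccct

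The second set comes from anchors with 7 or 8 mets-shared loops each, where several distal partners meet.
Sdc4 anchor, forkhead letters, chr2:164441851-164441911, - strand: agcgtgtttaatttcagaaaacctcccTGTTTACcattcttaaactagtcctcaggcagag
Sdc4 anchor, HNF4 letters, chr2:164437885-164437947, + strand: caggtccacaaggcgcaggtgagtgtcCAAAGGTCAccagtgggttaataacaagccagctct
Anchor near Tmem252, forkhead letters, chr19:24643272-24643332, + strand: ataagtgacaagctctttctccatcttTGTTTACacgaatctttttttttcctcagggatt
Anchor near Tmem252, AP-1 letters, chr19:24641169-24641229, + strand: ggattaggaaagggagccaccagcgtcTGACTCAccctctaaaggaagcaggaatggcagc
Myh9 intron, HNF4 letters, chr15:77816613-77816675, + strand: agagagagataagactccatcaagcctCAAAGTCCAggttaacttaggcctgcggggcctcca

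Mets-shared loops were mostly contacts over long distances. Their median span, measured between the centres of the 2 anchors, was 115.2 kb, with quartiles at 47.6 and 259.2 kb and the extremes at 5.01 and 1990.8 kb. Loops of 100 kb or more, called long here, made up 54.6% of them (95% Wilson interval 53.5 to 55.6). The mirror set, 6168 tumor-shared loops that stood in both tumor lists and neither liver mets list, had a median span of 133.7 kb, and 58.9% of it was long, a difference of -4.31 percentage points for the mets-shared loops (interval -5.91 to -2.71). The 13168 loops held by all 4 lists were far shorter, with a median of 29.8 kb. The 89192 liver mets loops of 1 factor alone were longer, with a median of 355.8 kb. All intervals cover counting error only, and loops that share an anchor are not independent, so the true uncertainty is larger.

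There were 1.47 mets-shared loops for each tumor-shared loop (exact interval 1.43 to 1.52). The excess was steepest among short loops. Between 5 and 10 kb, 269 mets-shared loops stood against 122 tumor-shared loops, a ratio of 2.20 (1.77 to 2.75). Between 1000 and 2000 kb, 293 stood against 220, a ratio of 1.33 (1.11 to 1.59). The FOXA1 liver mets list is itself longer than the FOXA1 tumor list, with 125623 against 104136 loops, while the HNF4G lists have 78098 and 76323 loops. The expected numbers of shared loops, explained next, stood in a ratio of 1.49 between the lines.

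The expected number takes, within each of 8 span ranges, the anchor pairs that neither of the other 2 lists held. It multiplies the shares of those pairs that were listed by FOXA1 and by HNF4G in the same line. It is a description of the lists and not a test. For the mets-shared loops it came to 6074.6, so that 9083 loops were 1.5 times the expected number (1.46 to 1.53). The ratio rose with span, from 269 observed against 248.0 expected loops at 5 to 10 kb, a ratio of 1.08 (0.959 to 1.22), through 1.48 (1.42 to 1.55) at 100 to 200 kb, to 293 against 113.5 at 1000 to 2000 kb, a ratio of 2.58 (2.29 to 2.89). At the shortest spans the interval of the ratio included 1, and at every longer range it lay above 1. At 5 to 10 kb, however, 529 and 437 of only 932 pairs were listed, so the ratio could not rise far there. On the odds ratio scale the same range stood at 1.45 (1.11 to 1.88), and 1000 to 2000 kb at 2.72 (2.41 to 3.07).

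An overlap above the expected number was not particular to the 2 factors of the liver mets line. Tumor-shared loops were at 1.51 times their expected number (1.47 to 1.55). Combinations of 2 lists that cross the lines and the factors at the same time gave 1.52 (1.49 to 1.55) for FOXA1 liver mets with HNF4G tumor, with 8392 loops, and 1.49 (1.45 to 1.52) for HNF4G liver mets with FOXA1 tumor, with 6830 loops. The same factor in both lines gave 1.49 (1.46 to 1.51) for FOXA1 and 1.65 (1.60 to 1.70) for HNF4G. On the odds ratio scale, pooled over span ranges by the Mantel-Haenszel method, the mets-shared loops stood at 1.97 (1.91 to 2.02), the tumor-shared loops at 1.85 (1.79 to 1.91) and the crossed combinations at 1.95 (1.89 to 2.00) and 1.89 (1.83 to 1.95). The 6 combinations share lists with each other, so they are set side by side and no difference among them was tested. With pairs also sorted by the summed loops of both anchors, the ratio of mets-shared loops fell to 1.34 (1.31 to 1.37), and the other 5 combinations lay between 1.32 and 1.42.

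**Figure D1:**
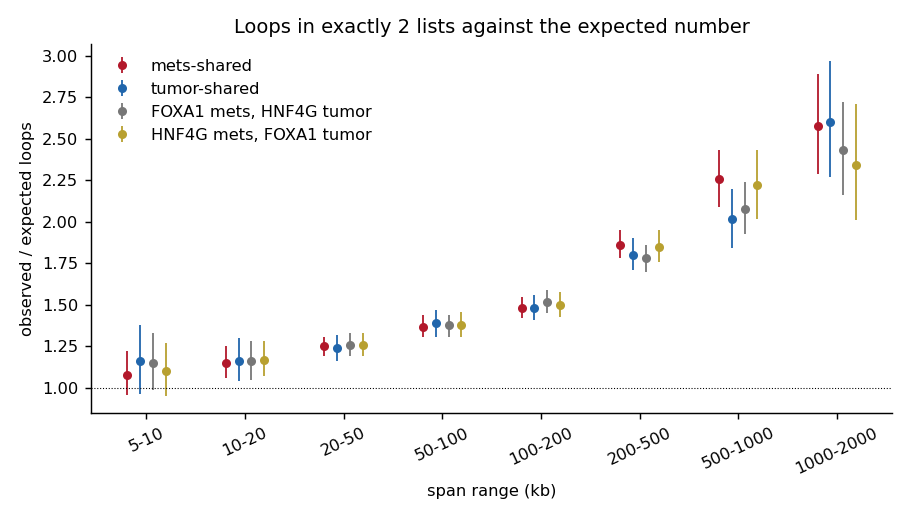
Observed over expected number of loops in exactly 2 lists (vertical axis, a ratio) in 8 span ranges (horizontal axis, kb), for the mets-shared loops, the tumor-shared loops and the 2 crossed combinations; bars are 95% Poisson intervals and the dotted line marks 1. The mets-shared loops rise from 1.08 at 5 to 10 kb to 2.58 at 1000 to 2000 kb, and the other 3 sets rise with them.

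Most mets-shared loops touched a promoter, but fewer did so than among tumor-shared loops. Promoter anchors were those with an annotated transcript start (GENCODE M21) inside them or at most 2 kb away. No anchor was a promoter anchor in 2841 mets-shared loops (31.3%), 1 anchor was in 3865 (42.6%) and both were in 2377 (26.2%). Of the loops joining a pair of promoters, 1897 joined promoters of protein-coding genes at both ends. At least 1 promoter anchor was thus found in 68.7% (67.8 to 69.7) of the mets-shared loops, against 76.5% (75.4 to 77.6) of the tumor-shared loops. The class without any promoter was 7.80 points larger (6.37 to 9.22) and the class with a promoter at both ends was smaller (difference -7.49 points, -8.98 to -6.00), while the class with 1 promoter differed by -0.314 points (-1.92 to 1.28).

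The gap stood in every span range. At 50 to 100 kb a promoter anchor was found in 65.6% of the mets-shared and 75.1% of the tumor-shared loops, and at 200 to 500 kb in 73.5% and 80.3%. The odds ratio pooled over span ranges was 0.688 (0.638 to 0.740). It lay below 1 in all 8 ranges and its interval reached 1 only at 1000 to 2000 kb (0.785, 0.499 to 1.24). Against the liver mets loops of 1 factor the odds ratio was 1.03 (0.980 to 1.08), and for a promoter at both ends it was 1.10 (1.05 to 1.16). Against the loops held by all 4 lists the odds ratio for a promoter anchor was 0.556 (0.520 to 0.596). Among loops of 1 factor alone, the liver mets line was also lower than the tumor line, at 0.878 (0.859 to 0.897).

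The promoter share also moved with the HNF4G tumor list. In the 3 combinations of exactly 2 lists that include this list, 74.2% to 77.9% of the loops had a promoter anchor. In the 3 that do not, including the mets-shared loops, the share was 67.9% to 72.3%. FOXA1 shared by both lines, at 67.9% (67.1 to 68.6), was at the level of the mets-shared loops. The part of the HNF4G tumor list in the gap between the lines was not tested.

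**Figure D2:**
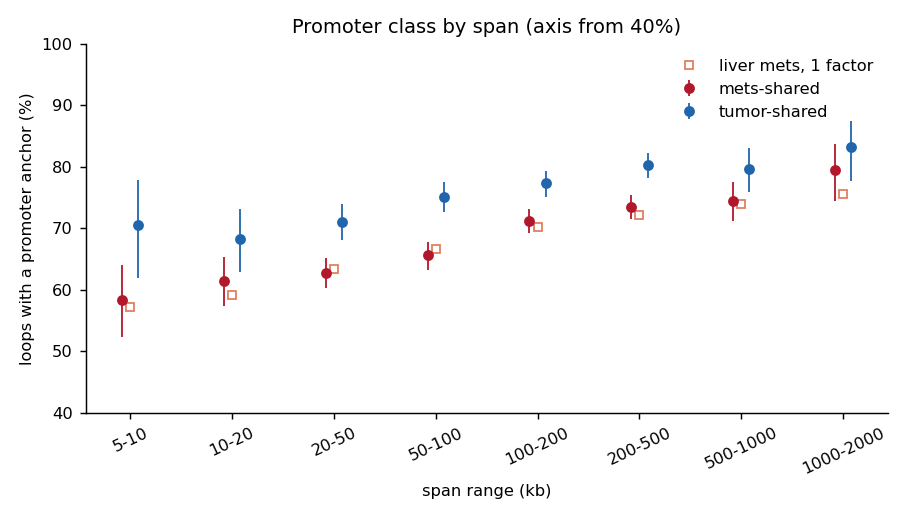
Share of loops with at least 1 promoter anchor (vertical axis, percent, starting at 40) by span range (horizontal axis, kb), with 95% Wilson intervals for the mets-shared and tumor-shared loops; open squares show the liver mets loops of 1 factor. The mets-shared points lie below the tumor-shared points in all 8 ranges, from 58.4% against 70.5% at 5 to 10 kb to 79.5% against 83.2% at 1000 to 2000 kb.

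The deposited value of each loop, read as the negative log10 of an adjusted p, was low for most mets-shared loops. In the FOXA1 liver mets list it ran from 0.0459 through a median of 0.948 to 20, and in the HNF4G liver mets list from 0.116 through 1.51 to 12. The smaller of the 2 values was at least 1.3 in 3857 loops (42.5%) and at least 2 in 112 (1.23%). Among the other loops of both liver mets lists, which also stood in a tumor list, 23.7% reached 1.3 and 5.77% reached 2, so that the mets-shared loops were the larger share at the lower cut and the smaller share at the higher one. The median of the smaller value was 0.832 for the mets-shared and 0.264 for the other loops. Nearly all mets-shared loops with a value of at least 1.3 in both lists were long (99.7%). The value thus moved with span, so a minimum on it removes short loops.

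The 10 mets-shared loops with the highest smaller value spanned 119.8 to 551.1 kb and joined promoters, introns and sites between genes. The first linked an anchor at the promoters of Vti1a, a SNARE protein of vesicle fusion, and Zdhhc6, a protein palmitoyltransferase (chr19:55315324-55317564), to an intron of Tcf7l2 (chr19:55864752-55870243), which encodes a transcription factor of the Wnt pathway. Its values were 8.63 for FOXA1 and 6.41 for HNF4G, its span was 551.1 kb, and the Tcf7l2 anchor held 4 matches to the AP-1 letters and none to the forkhead or HNF4 letters printed above. The loop with the highest HNF4G value, 12, with 5.83 for FOXA1, joined an intron of Itpr3, an inositol trisphosphate receptor (chr17:27062750-27065349), to the anchor of Hmga1, which encodes an architectural chromatin protein (chr17:27552172-27566646), 495.4 kb away. Both anchors were in use in the tumor line, with 50 FOXA1 and 45 HNF4G tumor loops at Hmga1, but not with each other at identical coordinates. With anchors widened by 5 kb, 2 tumor loops ran between the same places, and with 20 kb there were 9.

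An anchor at the small RNA gene Mir3089 and Gm14488 (chr2:30716052-30721269) was joined to an intron of Ptges, the prostaglandin E synthase (chr2:30916776-30921983), over 200.7 kb, with values of 6.44 and 5.22. The first of these anchors held 1 forkhead and 1 HNF4 match close together, and the second 5 AP-1 matches. Other loops of this group joined the promoters of Brpf1, a reader of acetylated histones (4.84 and 5.63, 282.5 kb), and of Pcgf5, a Polycomb group protein (4.81 and 8.05, 257.5 kb), to sites with no start, the second being in an intron of Rpp30. A further loop ran 238.7 kb between the promoters of Cfl1, which encodes the actin-severing protein cofilin, with Mus81, and of Ehbp1l1 (4.61 and 5.51). The remaining pair lay on chromosome 11, from the promoter of Aatk to a site near Bahcc1 over 265.0 kb (5.01 and 5.63) and from a site between genes to the promoter of Aspscr1, a regulator of glucose transporter sorting, over 188.0 kb (6.13 and 7.56). A loop on chromosome 12 joined 2 sites between genes over 247.2 kb (4.79 and 5.46). Among the 10 it alone had no tumor loop of either factor between the same places when anchors were widened by 20 kb.

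Tumor loops close to a mets-shared loop were common. With anchors widened by 5 kb on each side, 5264 mets-shared loops (58.0%) had no tumor loop between the same places, and with 20 kb 2021 (22.3%). The tumor-shared loops gave nearly the same shares against the liver mets lists, 58.2% and 21.7%. Identical coordinates are therefore a narrow definition of absence for both sets alike.

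Myc, a transcription factor and oncogene that drives growth, held 3 mets-shared loops, each reaching into the neighbouring non-coding gene Pvt1. From the Myc anchor (chr15:61982799-61989222) they ran to chr15:62104041-62107583 at 119.8 kb, to chr15:62177233-62182558 at 193.9 kb and to chr15:62280295-62282163 at 295.2 kb. Their FOXA1 values were 8.46, 4.31 and 1.62 and their HNF4G values 6.01, 1.76 and 1.90. The Myc anchor had 35 FOXA1 and 25 HNF4G liver mets loops against 30 and 21 tumor loops, so all 4 lists used it. Of its 45 distinct loops, 11 stood in all 4 lists and 1 was tumor-shared. For the loop of 119.8 kb, 0 tumor loops ran between the same places with anchors widened by 5 kb, and 4 with 20 kb. Within the stretch from 500 kb before Myc to 500 kb past Pvt1 (chr15:61485391-62878096), 16 of 302 distinct loops were mets-shared (5.30%, against 3.64% over all loops). In the same stretch 3 were tumor-shared, a ratio of 5.33 (1.53 to 28.6), against 1.47 over all loops. The stretch was taken because the authors show Myc as an example of looping in the liver mets line. That example comes from these same data, so the ratio is a description and not independent support.

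Several mets-shared loops often met at 1 anchor. Of 30542 anchors, 12258 (40.1%) had at least 1 mets-shared loop, 4090 had at least 2 and 101 (0.331%) had at least 5. The most at any anchor was 8. For the tumor-shared loops, 46 anchors had at least 5 and the most was 10. Anchors with a mets-shared loop were busy ones, with a median of 19 distinct loops against 14 over all anchors, and 38.3% of them also had a tumor-shared loop.

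The anchor of Sdc4, which encodes the cell-surface proteoglycan syndecan-4 (chr2:164431191-164444157), had 8 mets-shared loops and no tumor-shared loop. It carried 34 FOXA1 and 29 HNF4G liver mets loops and 26 FOXA1 and 20 HNF4G tumor loops, with 57 distinct loops in all. Its partners lay 241.5 to 1419.8 kb away, 7 of them at promoters, among them those of Ctsa, a lysosomal protease, Eya2, a transcriptional coactivator, and Serinc3. The strongest in FOXA1 ran to Dnttip1 and Wfdc3 with a value of 4.94, while the HNF4G values of its mets-shared loops were all between 1.83 and 1.99. Such values recurred at loops of similar span elsewhere, with 1.83 at 244.0 kb from the anchor near Tmem252 and 1.99 at 1046.3 kb from Vim. They therefore do not single out this anchor.

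The anchor shared by Ldb1, a cofactor that can bridge distant regulatory elements, and Pprc1, a coactivator of mitochondrial genes (chr19:46037157-46047305), also had 8, with 30 and 26 liver mets loops against 19 and 19 tumor loops. Only 2 of its 8 partners were promoters. Another anchor with 8 lay between genes, 30.4 kb from the nearest start, that of Tmem252 (chr19:24640127-24643599). It was a small anchor with 25 and 16 liver mets loops against 11 and 8 tumor loops, and 22.9% of its 35 distinct loops were mets-shared. Of its 8 partners 3 were promoters.

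Anchors with 7 mets-shared loops were those at Hmga1, in an intron of Myh9, the nonmuscle myosin heavy chain (chr15:77815146-77825605), in Slc38a10, in an intron of Rptor, a subunit of the growth regulator mTORC1, and at Kdm4b, a histone demethylase (chr17:56323888-56327241). The Myh9 anchor had no tumor-shared loop and the Hmga1 anchor had 4. At Kdm4b, 7 of 34 distinct loops (20.6%) were mets-shared and none stood in all 4 lists. With these 8 anchors stand 4 of the 26 that had 6 mets-shared loops, those with the most liver mets loops of both lists summed. In 11 of these 12 anchors the FOXA1 liver mets list held more loops than the FOXA1 tumor list, and at the Rptor intron both held 33. For HNF4G the liver mets list was below the tumor list at Tk1, the thymidine kinase gene shared with Afmid (34 against 46), and at Lasp1, an actin-binding protein (41 against 51). An anchor 5.58 kb from Malat1, a nuclear long non-coding RNA, had 70 FOXA1 and 46 HNF4G liver mets loops, 55 and 46 tumor loops and 6 mets-shared loops. The promoter anchor of Frmd8 and Slc25a45 had 55 and 38 against 37 and 33, and its 6 mets-shared loops all reached promoters, with no tumor-shared loop beside them. Since these anchors were ranked by mets-shared loops, more liver mets than tumor loops at them follows in part from the choice.

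**Figure D3:**
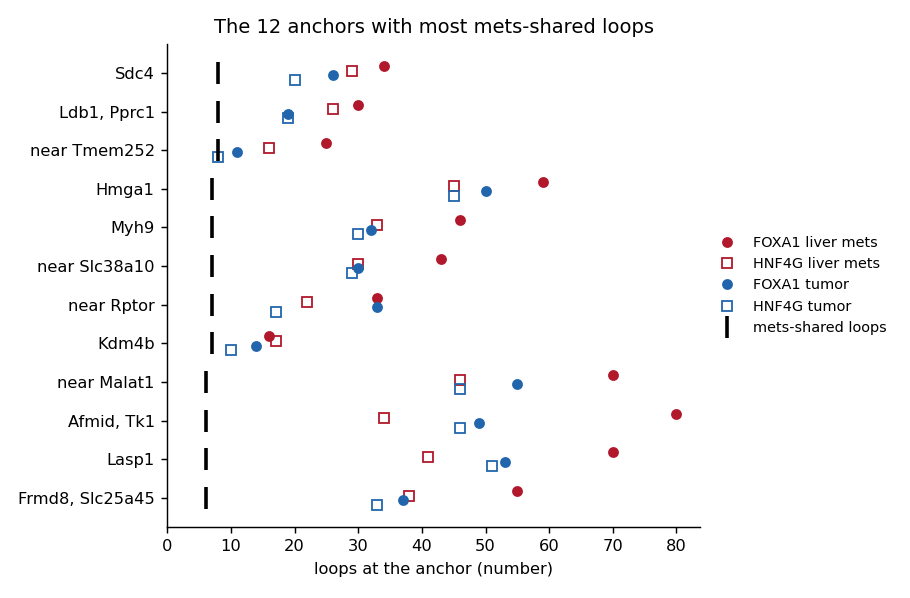
Loops at each of 12 anchors, the 8 with most mets-shared loops and 4 of the 26 tied at 6 (horizontal axis, number of loops) in the 4 lists, with filled circles for FOXA1, open squares for HNF4G, red for liver mets and blue for tumor; black bars give the mets-shared loops, 6 to 8 an anchor. At Sdc4 the lists hold 34, 29, 26 and 20 loops, and at Tk1 the HNF4G liver mets list lies below both tumor lists.

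**Figure D4:**
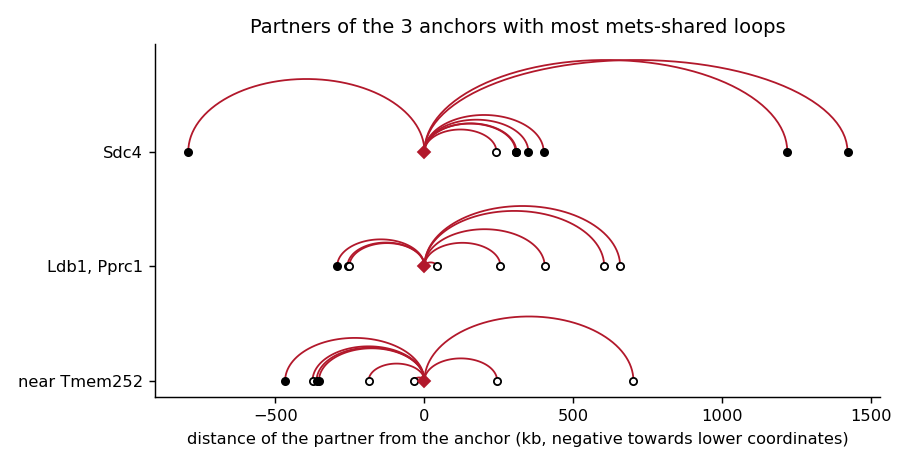
Partners of the 3 anchors with 8 mets-shared loops, drawn by their distance from the anchor (horizontal axis, kb); diamonds are the anchors, filled circles are partners with a transcript start within 2 kb, open circles are partners without one, and arc height grows with span up to 1000 kb. Sdc4 reaches mostly promoters, up to 1419.8 kb away, while 6 of the 8 partners of Ldb1 and Pprc1 have no start.

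Nearly all mets-shared loops joined anchors that the tumor line also used. Both anchors were in use in both tumor lists for 8419 of them (92.7%), and 83 (0.914%) had an anchor with no tumor loop of either factor. In the mirror set, 24 tumor-shared loops (0.389%) had an anchor with no liver mets loop. Of the anchors with a mets-shared loop, 85 (0.693%) were missing from both tumor lists, as were 644 of all 30542 anchors. Use of an anchor in the tumor line was thus the rule for anchors in general. The 92.7% was not computed for other loops, so it is not a trait of the mets-shared ones. An anchor between genes (chr17:79281191-79286359) had 8 FOXA1 and 9 HNF4G liver mets loops and none in the tumor lists. It had 3 mets-shared loops over 430.9 to 548.6 kb, 1 of which reached the promoter of Cyp1b1, a cytochrome P450 of hormone and carcinogen metabolism. The promoter of Ndufs4, a subunit of mitochondrial complex I (chr13:114387359-114388693), had 5 FOXA1 and 3 HNF4G liver mets loops, and its 3 mets-shared loops led to Cdc20b with the Mir449 genes, to Fst, the activin antagonist follistatin, and to a site near Fst. Smaller cases, with 2 mets-shared loops each, were the promoter of Rbpms, which encodes an RNA-binding protein, and introns of Adgrl3 and Ino80d.

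Linked through common anchors, the mets-shared loops formed 3423 groups, of which 2043 were single loops, and 48.4% of the loops lay in groups of 5 or more, against 34.3% of the tumor-shared loops. The larger number of mets-shared loops moves with this share. The largest group joined 307 loops over chr19:3316880-12493020, and the second 195 over chr11:115133844-121356098. The third, 125 loops over chr11:94132299-101285418, took in the receptor gene Erbb2, the ductal keratin gene Krt19 and Jup, which encodes the junction protein plakoglobin. Both ends of a mets-shared loop were joined to 1 further anchor in common by loops of all 4 lists in 13.5% of cases (12.8 to 14.2), against 12% (11.2 to 12.9) of the tumor-shared loops (odds ratio over span ranges 1.12, 1.01 to 1.23) and 3.55% of the liver mets loops of 1 factor (2.36, 2.19 to 2.54).

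The 3 windows of 1 Mb with the highest counts of mets-shared loops lay at 5 to 6 Mb of chromosome 19 (70, with 50 tumor-shared), at 120 to 121 Mb of chromosome 11 (66 and 58) and at 6 to 7 Mb of chromosome 19 (65 and 43). These were 3.28%, 3.31% and 4.44% of the distinct loops of the windows, against 3.64% over all loops. The ratio of mets-shared to tumor-shared loops was lowest on chromosome 11, with 961 against 783 loops (1.23, 1.12 to 1.35). It was highest among autosomes on chromosome 14, with 166 against 71 (2.34, 1.76 to 3.13), and chromosome 18, with 164 against 72 (2.28, 1.72 to 3.05). Chromosome X had 17 and 7. The lists differed in length between the lines here too. Liver mets and tumor lists held 14098 and 11815 FOXA1 and 9013 and 9650 HNF4G loops on chromosome 11. On chromosome 14 they held 2185 and 1728 and 1276 and 1148, and on chromosome 18 1966 and 1441 and 1138 and 1029. The part of list length in these ratios was not tested.

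A gene was assigned the loops of its promoter anchors. Of 15476 genes with such an anchor, 6759 (43.7%) had at least 1 mets-shared loop, and of 10802 protein-coding genes 4768 (44.1%), while 39.0% had a tumor-shared loop. The share of protein-coding genes grew with how many loops a gene had, from 14% of those with 1 to 9 distinct loops to 96.8% of those with 80 or more, whereas mets-shared loops made up 2.75% to 3.66% of the distinct loops in these classes. A count of genes with a mets-shared loop must be read beside that. For protein-coding genes together mets-shared loops were 3.40% of distinct loops, and the median gene had 16 distinct loops. Genes whose promoters share an anchor share its loops. Totals of a gene list are sums over its genes, so a loop that joins a pair of genes of the list counts for each. Over all protein-coding genes these sums were 8533 mets-shared and 6921 tumor-shared loops.

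Genes of the Hippo pathway, a growth-restraining kinase pathway that acts on YAP, TAZ and the TEAD factors, stood above that share. Of its 12 genes with a promoter anchor 10 had a mets-shared loop (83.3%, against 44.1% of all protein-coding genes). The 12 genes had a median of 30 distinct loops. Of protein-coding genes with 20 to 39 distinct loops, 60.4% had a mets-shared loop. The list had 27 mets-shared against 17 tumor-shared loops, and the mets-shared ones were 4.96% of its distinct loops. Ankrd1, a known target gene of YAP, had 8 liver mets loops in each list, 7 FOXA1 and 2 HNF4G tumor loops, and 4 of its 14 distinct loops were mets-shared (28.6%) and none tumor-shared. They ran 28.6 to 228.9 kb, to Rpp30 and its intron, to an intron of AC119234.1 and to the promoter of Pcgf5. In 3 of the 4 the values were low, with 0.0844, 0.0856 and 0.0889 for FOXA1 and 0.146, 0.391 and 1.01 for HNF4G, and the loop to Pcgf5 had 1.49 and 1.82. The last, the one to the Rpp30 intron and the strong loop from that intron to Pcgf5 described above form a triangle. Amotl2, which encodes a partner of YAP, had 4 of 35 and 2 tumor-shared loops, and Vgll4, a TEAD cofactor, had 5 of 150 (3.33%) and 4 tumor-shared loops. Tead3, which encodes a TEAD factor, had 4 of each. Tead4 and Tead2 went the other way, with 1 and 0 mets-shared against 4 and 1 tumor-shared loops. Yap1 itself had none.

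In the Wnt pathway 7 of 17 genes had a mets-shared loop (41.2%, against 44.1% of all protein-coding genes). All 17 genes together had 27 against 12 tumor-shared loops, and the mets-shared loops were 4.39% of their distinct loops. Tcf7l1, a transcription factor, had 6 of 73 and 1 tumor-shared loop, with values of up to 6.11 for FOXA1 and 5.57 for HNF4G. Ctnnb1, which encodes beta-catenin, had 5 of 56 and 3 tumor-shared loops, and Rnf43, a ubiquitin ligase that removes Wnt receptors and is mutated in some pancreatic tumors, had 5 of 77 and no tumor-shared loop. Rnf43 had 40 FOXA1 and 38 HNF4G liver mets loops against 39 and 22 tumor loops. Tcf7l2 promoter anchors had 3 and 0. Wnt7b, a ligand with 83 distinct loops, went the other way with 0 mets-shared and 3 tumor-shared loops.

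Notch genes (10 of 12 genes, 20 against 14 loops, 4.75%) and genes of semaphorin and axon guidance signalling (9 of 14, 24 against 15, 5.12%) also lay above the share for protein-coding genes. Among them were the receptor gene Notch1 with 4 of 80, the ligand gene Dll1 with 3 of 31, the semaphorin receptor gene Plxna1 with 6 of 96 but also 5 tumor-shared loops, and the ephrin receptor gene Epha2 with 5 of 77 and 2 tumor-shared. Rbpj, Plxnd1 and Jag2 went the other way, with 2, 2 and 0 mets-shared against 5, 5 and 3 tumor-shared loops. In the TGF-beta pathway 11 of 17 genes had a mets-shared loop, 18 loops against 9, yet 3.55% of distinct loops. Genes with a mets-shared loop were 83.3% of the Notch, 64.3% of the semaphorin and axon guidance and 64.7% of the TGF-beta list. The share of all protein-coding genes was 44.1%. The median gene of these lists had 31, 15 and 18 distinct loops, against 16 for protein-coding genes. The signal transducer Smad3, its inhibitor Smad7 and the ligand gene Tgfb1 each had 3 and no tumor-shared loop.

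Lists of cell identity genes lay on both sides of the 3.40% for all protein-coding genes. Their counts of genes with a mets-shared loop stand beside the 44.1% of all protein-coding genes. FOXA, HNF and GATA factors had 7 loops in 5 of 10 genes (3.43%). Gata4 had 2, with 5 FOXA1 and 6 HNF4G liver mets loops, 4 HNF4G tumor loops and no FOXA1 tumor loop, but low values (0.0889 for FOXA1 and 0.146 for HNF4G at both loops). Foxa1, Foxa2, Hnf4a and Hnf4g were among those with none. Hnf4g had no liver mets loop of either factor, so it could not have had one. Pancreatic progenitor and ductal factors had 11 loops in 5 of 6 genes (4.21%), with 3 at Pdx1, which directs pancreas development and had a FOXA1 value of up to 5.26, and 3 at Onecut2. These 6 genes had a median of 35.5 distinct loops, against 16 for protein-coding genes. Epithelial junction and identity genes had 19 against 18 loops (2.82%), led by Jup with 5, Pkp3, a plakophilin, with 4 and Cdh1, which encodes E-cadherin, with 3. Mesenchymal transition genes had 8 loops in 5 of 11 genes (3.62%), of which 3 were at Vim, the intermediate filament vimentin, with values of up to 2.79 and 3.21 and no tumor-shared loop. The squamous and basal-like program had 1 loop in 1 of 5 genes (1.20%).

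Of the other lists, KLF factors had 12 loops in 7 of 9 genes (4.29%), with 3 and no tumor-shared loop at Klf6. Cell cycle regulators had 16 in 9 of 13 (3.90%), led by Ccnd1, which encodes cyclin D1, with 5 and 4 tumor-shared loops, and Cdkn2a with 3 of 19. AP-1 factors had 16 in 8 of 11 (3.45%), with 4 and 3 tumor-shared loops at Fosl1. Glycolysis and hypoxia genes had 16 in 9 of 14 (3.47%), and mucin and gastric-type genes 8 in 5 of 7 (3.38%), with 4 mets-shared and 4 tumor-shared loops at Muc1. Laminin and integrin genes (11 in 6 of 11, 2.90%, with 4 at Lama5), EGF receptors and ligands (9 in 5 of 9, 2.98%, with 3 at Erbb2), RAS pathway and feedback genes (15 in 10 of 16, 2.93%) and chemokine genes (10 in 7 of 11, 2.87%) lay somewhat lower. Ribosomal protein genes (14 in 8 of 18, 2.55%), chromatin genes (10 in 6 of 15, 2.23%) and cell survival genes (10 in 5 of 11, 3.56%) had fewer mets-shared than tumor-shared loops, 14 against 18, 10 against 14 and 10 against 12. These lists are small, and a difference of a few loops can come from 1 anchor. Their counts of genes, too, stand beside the 44.1% of all protein-coding genes.

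Markers of cells that do not belong in a pancreatic cancer line mostly had no promoter anchor at all, which was so for 8 of 11 hepatocyte, 9 of 11 acinar, 7 of 10 endocrine, 7 of 10 fibroblast and stellate, 9 of 10 macrophage and leukocyte and 6 of 8 endothelial genes. Hepatocyte genes had 3 mets-shared loops, 2 at Apoa1 and 1 at Apob, both apolipoprotein genes, and endocrine genes had 3, all at Mafa. Each of these lists had 58 distinct loops, of which the mets-shared loops were 5.17%, above the Hippo, Notch and semaphorin lists.

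**Figure D5:**
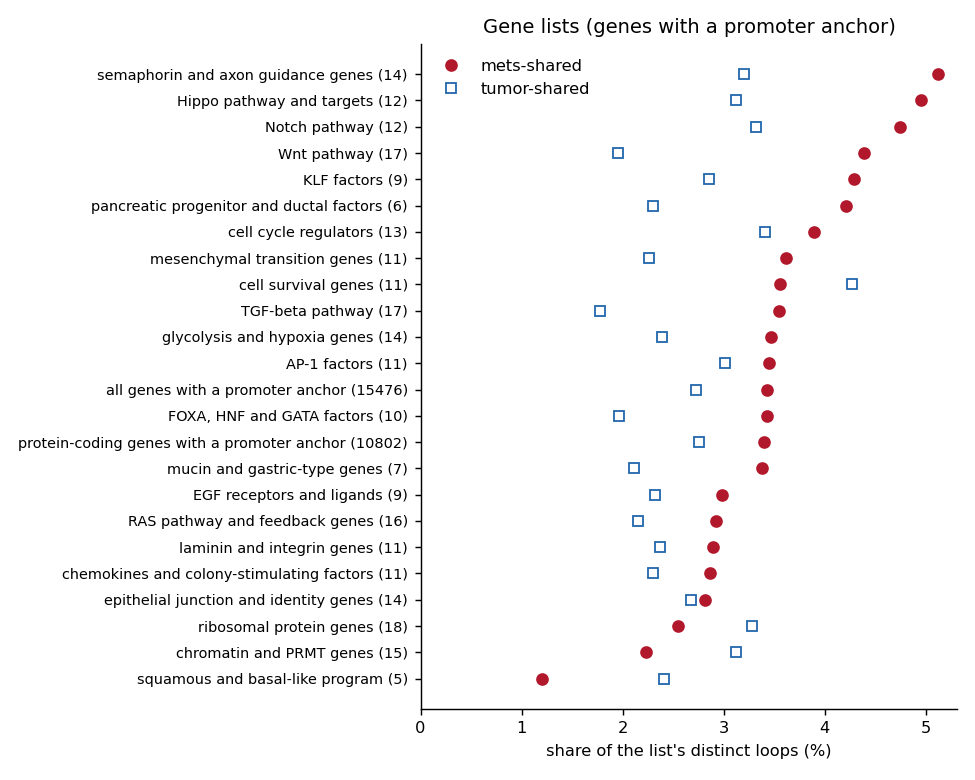
Mets-shared (filled circles) and tumor-shared loops (open squares) as a share of the distinct loops at the promoter anchors of each gene list (horizontal axis, percent), for lists with at least 5 genes with a promoter anchor, whose number stands in brackets. Semaphorin, Hippo and Notch genes lie between 4.75% and 5.12% for mets-shared loops, against 3.40% for all protein-coding genes, and the squamous list lies lowest.

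The reference letters in the central 1 kb of the anchors were compared between 7562 anchors with mets-shared and no tumor-shared loops and 4413 with tumor-shared and no mets-shared loops. The AP-1 letters were found in 41.9% of the first and 35.6% of the second, a difference of 6.32 points (4.51 to 8.11). The difference stood within anchors without a start (50.8% against 46.4%, 4.31 points, 1.74 to 6.88) and within promoter anchors (29.8% against 25.1%, 4.71 points, 2.30 to 7.09). Over all anchors of the 4 lists, the share was 50.4% without a start and 26.9% at promoters. Without a start the mets-shared anchors were thus near the general level and the tumor-shared anchors below it, while at promoters the mets-shared anchors were above it and the tumor-shared anchors below.

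The forkhead letters were found in 20.2% against 18.3% over all anchors (1.97 points, 0.500 to 3.41), in 15.7% against 13.8% of promoter anchors (1.97 points, 0.0445 to 3.85) and in 23.5% against 22.9% of anchors without a start (0.599 points, -1.60 to 2.75). The HNF4 letters were found in 3.56% and 3.33% (0.226 points, -0.468 to 0.886). The GC box (GGGCGGGG), common in housekeeping promoters, was less frequent at mets-shared promoter anchors, 30% against 36% (-5.99 points, -8.53 to -3.45), and the consensus of CTCF, which anchors many loops with cohesin, was in 1.81% and 2.08% (-0.273 points, -0.814 to 0.229), and without a start in 1.79% and 2.59% (-0.797 points, -1.63 to -0.0633). Median GC content moved with these shares, at 46.9% against 47.6% without a start and 53.7% against 55.5% at promoters, and its part in them was not tested. Of the mets-shared loops, 32.9% (32.0 to 33.9) had the forkhead letters at 1 or both anchors and 1.46% had them at one anchor and the HNF4 letters at the other. These shares were 30.7% and 1.35% for the tumor-shared loops, and 32.8% and 1.35% for the liver mets loops of 1 factor. The mets-shared loops were thus near the other loops of their line, and the shares were not split by promoter class.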

How the data were processed

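HiChIP was done for FOXA1 and HNF4G in 8 samples, 2 per group. The authors aligned reads to mm10 with HiC-Pro 3.1.0, removed duplicates, assigned reads to DpnII fragments and called loops with hichipper, and they deposited 1 loop list per group. The deposited value column was read as -log10 of an adjusted p, from its values alone (tied runs, cap at 20). The deposited score is a rounded copy of it and was not used. Read depth and the joining of replicates are not given in the sources used here.

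Loops were matched on identical anchors and annotated with GENCODE M21. Spans ran between anchor centres. Shares have 95% Wilson intervals, differences Newcombe intervals, and ratios of counts exact intervals. Expected numbers and Mantel-Haenszel odds ratios used 8 span ranges and were tested on simulated data (Python 3.11.15, pandas 2.3.3, scipy 1.17.1, pysam 0.24.0). The simulated pairs were drawn independently, without shared anchors. They therefore did not check the expected numbers or intervals for loops that share an anchor. Loops and genes named were taken from the 12 anchors with most loops (ties broken by liver mets loops summed, then position), the 10 highest smaller values, 3 genes per list with most loops, 3 windows, 5 anchors absent from tumor lists, and Myc with Pvt1. Further genes of these lists were named after their values were seen. Members, lists and motifs were chosen with earlier results of these data known. The 28 gene lists were assembled from general knowledge, and 1 name had no gene in the annotation. A few genes are not reported here.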

Additional observations from a re-analysis of the deposited data

How the results depend on the processing

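No paired analysis was possible because each group has 1 list that covers both replicates, and for the same reason no replicate could be left out. Of 39 alternative values, 16 stayed within the main interval or within 1.5 times the main count, 23 moved, and 0 turned a direction whose interval had cleared 1. A turn could be scored only for a ratio or odds ratio whose main interval excluded 1. Counts, shares and the promoter odds ratio against liver mets loops of 1 factor could not be scored so. The number of mets-shared loops fell to 5264 and 2021 with tumor loops sought at anchors widened by 5 and 20 kb, and to 3857 and 112 with a value of at least 1.3 and 2 in both lists. With these minimum values the ratio to tumor-shared loops was 1.21 and 1.35, and the share of long loops 99.7% and 99.1%, while widening by 5 kb gave 61.5%. Observed over expected was 1.46 for anchors with at least 5 loops and 1.34 with the summed loops of both anchors as strata. The promoter share was 59.0% for a start inside the anchor, 78.4% within 5 kb, 60.4% for protein-coding genes and 83.0% for values of at least 2. Against tumor-shared loops the promoter odds ratio stayed below 1 in each of 7 alternatives, at 0.778 where no loop of the other line lay within 20 kb. Against liver mets loops of 1 factor where the main interval included 1, it was 1.06 (1.01 to 1.11) for a start inside the anchor, 0.961 within 5 kb and 0.871 (0.832 to 0.913) without span ranges, so its side of 1 depended on these choices. Genes with a mets-shared loop were 42.4%, 46.0% and 1.21% for a start inside the anchor, within 5 kb and for values of at least 2. Anchors with 5 or more fell from 101 to 23 at a value of 1.3 and to 16 with widening by 5 kb. Strata by summed loops, and for the promoter odds ratio the minimum value, the 20 kb limit and leaving out the 5 largest linked groups, which was also done for the ratio to tumor-shared loops, were chosen after seeing the data. Unknown depth limits what absence from a list can mean.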
